A study of Mus musculus with 6 samples.

Results

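Heat shock protein and co-chaperone genes were described in immune cells sorted from mouse hearts. The 40 genes were taken by symbol from the count table, and all 40 were found among its 57010 genes. They were grouped by role into 2 small heat shock proteins, 9 HSP70 proteins with their HSP110 relatives, 2 HSP90 proteins, 7 HSP40 proteins, 9 chaperonin subunits, 8 co-chaperones, and 3 genes for heat shock factors and polyubiquitin. The genes were collected under the name of cytosolic heat shock proteins, but Hspa9, Hspd1 and Hspe1 encode chaperones of the mitochondrial matrix.

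Chaperones hold unfolded proteins and help them fold. HSP40 proteins deliver clients to HSP70 and stimulate its ATPase, nucleotide exchange factors such as BAG and HSP110 proteins release them, and Stip1 bridges HSP70 to HSP90. The ring-shaped chaperonins enclose a client, TRiC in the cytosol for actin and tubulin among others and Hspd1 with Hspe1 in mitochondria. Under proteotoxic stress the factor Hsf1 binds heat shock elements in the promoters of many of these genes, so the family holds strongly inducible genes beside others that dividing and protein-making cells express at all times.

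All mice carried the genotype given as Ova DTG, in which ovalbumin is expressed only in the heart, and all were given OTI cells, CD8 T cells that recognise ovalbumin. The 3 libraries labelled ICI came from mice given checkpoint-blocking antibodies, anti-CTLA-4 and anti-PD-1 at 200 µg each, and the 3 labelled isotype from mice given control antibody. The sample titles of both groups name myocarditis, and the sources used here do not state age, day of collection or any pooling of animals. The sort kept CD45+ leukocytes and left out cells with CD90.2, an antigen of T cells encoded by Thy1. The comparison asks how the heart's immune cells other than T cells differed with checkpoint inhibition, and its direction rests on the labels.

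Total counts ran from 21528274 to 23713009 in the ICI libraries and from 24657436 to 30736316 in the isotype libraries. The leukocyte gene Ptprc (CD45) was at 1214 ± 113 and 1087 ± 50.5 CPM (counts scaled to library size by TMM, mean ± SD, n = 3 here and below), and Thy1 had at most 2 counts in any library. Several library measures moved with the groups. The mitochondrial share of counts was 0.692% to 0.830% in ICI and 0.412% to 0.465% in isotype libraries, and the ribosomal protein share was 0.597% to 0.614% and 0.996% to 1.18%. The summed level of 8 resident macrophage markers was 8609 to 10130 CPM in ICI against 274 to 354 CPM in isotype libraries, with all 8 called higher, and that of 7 monocyte markers was 723 to 1003 CPM against 4411 to 9601 CPM, with 6 called lower. The 6 B cell markers, all called higher, summed to 793 to 1488 CPM against 58.1 to 101 CPM. None of these markers was at 0 in either group. The part of these measures in the results below was not tested, and in bulk RNA a change in the number of cells of a type and a change in RNA per cell cannot be told apart. Replicate 3 of each group carried Xist counts (2786 and 1844) and few Y-linked counts (6 and 130), unlike replicates 1 and 2.

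The family did not move as 1 block. The largest rises in the libraries labelled ICI were those of Hspb1, Hspa1b and Hspa1a, at 37.6-fold, 31.4-fold and 27.6-fold, while all 9 chaperonin subunits fell by 1.29-fold to 2.25-fold. Of the 40 genes, all of which passed the filter on low counts, 15 (37.5%) were called higher and 16 (40%) lower by the edgeR quasi-likelihood test at an adjusted p under 0.05, 77.5% in either direction. Over all 14575 genes tested, 35.0% were called higher and 33.9% lower, 68.9% in all, so these shares are near the background. The groups did not overlap for 33 members (82.5%, against 73.8% of all genes). Rises of more than 2-fold were called for 8 members (20%, against 20.9% of all genes). Falls of more than 2-fold were called for 1 member (2.5%, against 12.8%), which was Hspe1. The median log2 fold change was 0.05 over the members and 0.03 over all genes tested. Together the 40 genes took 1.47% to 1.74% of all counts in the ICI libraries and 0.941% to 0.978% in the isotype libraries, without overlap. Their sum was 15092 ± 1650 CPM against 10287 ± 285 CPM, of which Hspa1a and Hspa1b made up 3760 ± 969 and 129.1 ± 46.6 CPM. The chaperonin sum went the other way (1117 ± 94.0 against 1860 ± 176 CPM), and the co-chaperone sums overlapped (600 to 691 against 677 to 705 CPM).

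**Figure D1:**
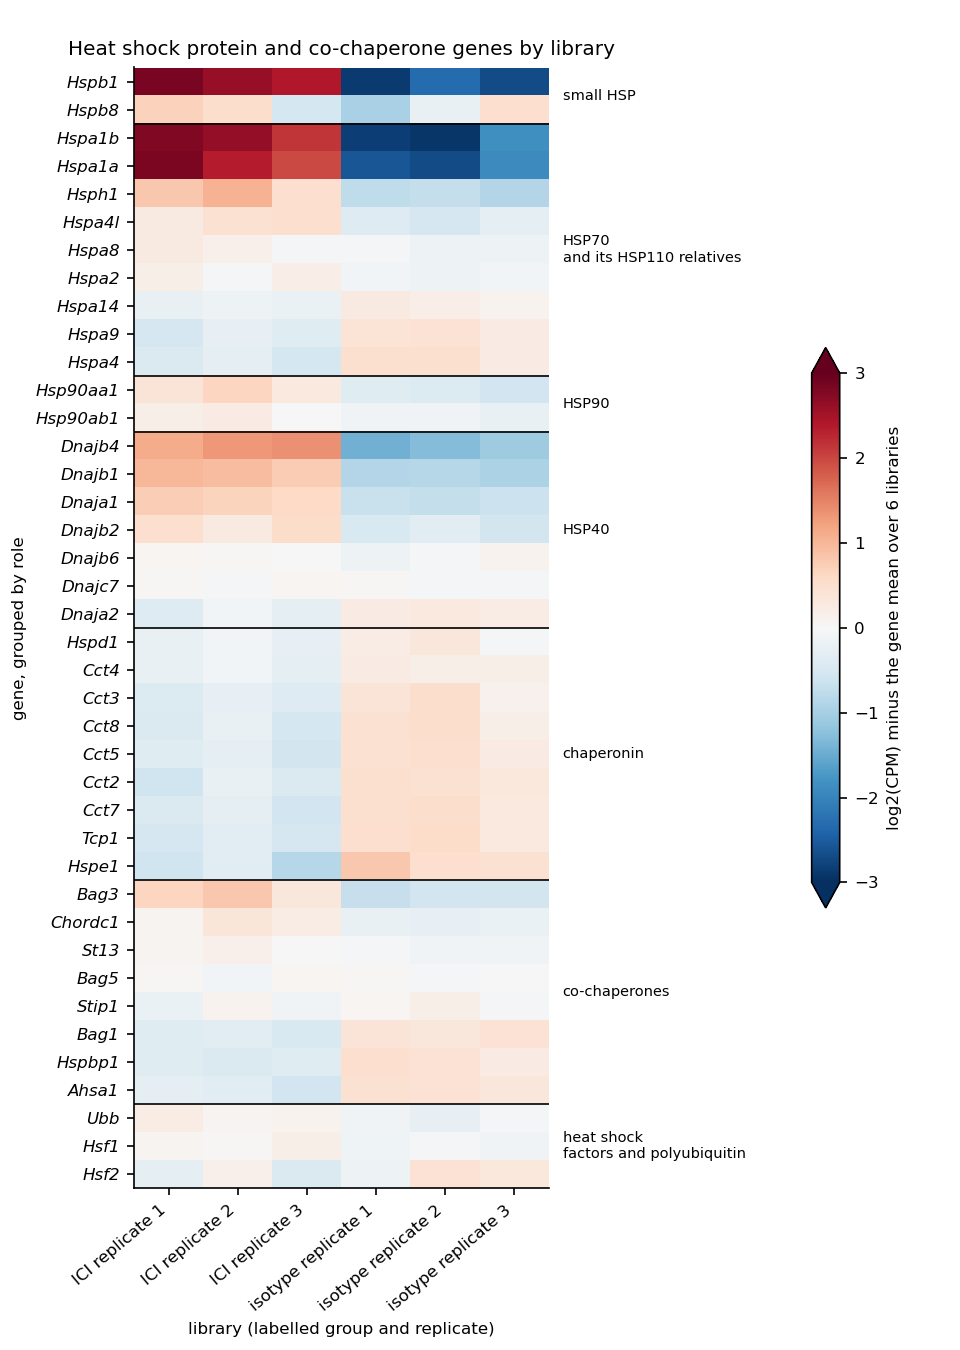
Level of each of the 40 genes (rows, grouped by role) in each of the 6 libraries (columns), as log2(CPM) minus that gene's mean over the 6 libraries. Hspb1, Hspa1a and Hspa1b stand out in all 3 ICI libraries, and the 9 chaperonin rows are paler but lower in every ICI library than in every isotype library.

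Small heat shock proteins bind unfolding proteins without using ATP. Hspb1 (ENSMUSG00000004951), known as HSP25 in mouse, was at 34.5, 29.4 and 25.2 CPM in ICI replicates 1, 2 and 3 and at 0.661, 0.969 and 0.752 CPM in the isotype replicates. The lowest ICI library was 26-fold above the highest isotype library. The log2 fold change was 5.23 (SE 0.20, edgeR adjusted p = 3.69e-08), and it lay between 34.3-fold and 41.6-fold when any 1 library was left out. Hspb8, the partner of Bag3 in selective autophagy, was scarce, with 33 counts over the ICI and 27 over the isotype libraries. Its values overlapped and it was not called (log2 fold change 0.41, SE 0.51, edgeR adjusted p = 0.494).

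Hspb1 is also abundant in heart muscle and vessel cells, so markers of those cells are given beside it. All 10 tested cardiomyocyte markers of 11 were called higher in the ICI libraries, and the list summed to 43.2 to 53.5 CPM against 7.10 to 17.2 CPM. The summed levels were 35.6 to 46.9 against 24.0 to 33.4 CPM for 9 endothelial markers (6 of 8 tested called higher), 60.7 to 189.9 against 11.6 to 15.7 CPM for 8 fibroblast markers (7 called higher), and 16.8 to 25.3 against 3.16 to 4.05 CPM for 7 mural cell markers (5 of 5 tested called higher). The fibroblast sum of 189.9 CPM was that of ICI replicate 1, with replicates 2 and 3 at 60.7 and 60.8 CPM. Only Cspg4, a mural marker, was at 0, in the isotype libraries. The most abundant marker of each list reached 10.6 CPM (Actc1), 17.3 CPM (Pecam1), 44.4 CPM (Dcn) and 6.83 CPM (Acta2) in the ICI libraries. The median log2 fold changes of the tested markers were 2.04 for cardiomyocytes, 1.5 for endothelium, 3.85 for fibroblasts and 2.40 for mural cells, against 5.23 for Hspb1. In the same order, single markers ran from 1.51 to 3.35, -0.124 to 3.88, 1.88 to 4.39 and 1.47 to 6.02. The highest value was that of Rgs5, a mural marker with 262 counts over the ICI and 4 over the isotype libraries. The leukocyte lists given above had medians of 6.99 (resident macrophage), 6.09 (B cell) and -2.75 (monocyte). Other small heat shock proteins of muscle had these values: Cryab was at 2.92 ± 0.591 against 3.41 ± 2.23 CPM and Hspb7 at 1.99 ± 0.234 against 1.57 ± 0.595 CPM, neither called, and Hspb6 rose 2.03-fold (edgeR adjusted p = 0.00203). The part of these cells in the rise of Hspb1 was not tested.

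Of the 9 genes for HSP70 proteins and their HSP110 relatives, 4 rose, 3 fell and 2 were not called. Hspa1a (ENSMUSG00000091971), the classic inducible HSP70, was at 2809.6, 2034 and 1572 CPM in the ICI replicates and at 66.3, 61.7 and 105 CPM in the isotype replicates. Its near copy Hspa1b (ENSMUSG00000090877) was at 1921, 1722 and 1221 CPM against 39.4, 37.1 and 78.2 CPM. For both genes replicate 3 was the lowest of the ICI libraries and replicate 3 the highest of the isotype libraries, and the groups were still separated by 15-fold or more. The log2 fold changes were 4.78 for Hspa1a (SE 0.33, edgeR adjusted p = 3.17e-05) and 4.97 for Hspa1b (SE 0.40, edgeR adjusted p = 0.000124).

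Hspa1a and Hspa1b cannot be read fully one by one. Of the 100-base windows of their annotated transcripts, 47.1% of those of Hspa1a also occur in Hspa1b, and Hspa1a shares exon sequence with the opposite-strand gene Gm20481, whose counts (4932 in ICI and 280 in isotype libraries) moved the same way. Summed to 1 gene, the pair was at 3760 ± 969 CPM against 129.1 ± 46.6 CPM, a 29.3-fold difference (edgeR adjusted p = 3.97e-05). The ratio of Hspa1a to Hspa1b counts was 1.18 to 1.46 in ICI and 1.34 to 1.68 in isotype libraries, so those ranges overlapped. Other members have processed pseudogenes that carry part of their sequence, among them Hspb1, Ubb, Hsp90aa1 and Hspa8, for which the closest copy holds 44.0%, 43.6%, 31.6% and 26.3% of the member's windows. Those copies had 9, 5835, 321 and 2416 counts in all, against 2227, 328526, 61831 and 479863 for the members, and adding pseudogene counts to their member changed no call.

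Hspa8 (HSC70), the constitutive cytosolic HSP70, differed by far less, 1.18-fold in the same direction. It was at 3772, 3485 and 3020 CPM in the ICI replicates and at 3065, 2830.1 and 2815 CPM in the isotype replicates. ICI replicate 3 lay below isotype replicate 1, and the gene was not called (log2 fold change 0.24, SE 0.11, edgeR adjusted p = 0.072, range 0.00206 to 1 over the alternatives). It was called higher with DESeq2 (adjusted p = 0.0364), upper-quartile factors, library totals alone, the strict filter and without ICI replicate 3. Hspa1a therefore reached 0.521 to 0.745 counts per Hspa8 count in the ICI libraries and 0.0216 to 0.0371 in the isotype libraries. Hspa2, best known from the testis, was at 26.9 ± 2.30 against 23.2 ± 0.671 CPM and was not called (edgeR adjusted p = 0.076).

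HSP110 proteins, which exchange the nucleotide of HSP70, went both ways. Hsph1 (HSP105), itself heat-inducible, was at 134, 159.6 and 109 CPM in the ICI replicates and at 45.5, 46.7 and 42.1 CPM in the isotype replicates, 3.00-fold higher (edgeR adjusted p = 5.41e-06; the log2 difference was 1.58, SE 0.13). Hspa4l rose 1.75-fold, from 31.8 ± 2.37 to 55.6 ± 4.77 CPM (edgeR adjusted p = 5.5e-05). Hspa4 (APG-2), the third HSP110 gene, fell 1.75-fold, from 208 ± 18.8 to 119 ± 10.8 CPM (edgeR adjusted p = 5.79e-05), so the ratio of Hspa4l to Hspa4 counts was 0.433 to 0.542 in ICI and 0.133 to 0.183 in isotype libraries. Hspa9 (mortalin), the HSP70 of the mitochondrial matrix, fell 1.67-fold, from 264 ± 17.7 to 158 ± 14.2 CPM (edgeR adjusted p = 7.44e-05). Hspa14, a ribosome-associated HSP70, fell 1.30-fold (edgeR adjusted p = 0.0022), a call lost with library totals alone (adjusted p = 0.0766) and against a 1.5-fold change. The values of the last 3 genes did not overlap between the groups.

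Promoter sequences are shown for 5 genes that hold the letters of the heat shock element, 4 of which rose and 1 of which fell. The element is built of inverted GAA blocks, and 2 forms were searched on both strands: a pair of blocks (GAANNTTC or TTCNNGAA) and a run of 3 blocks (GAANNTTCNNGAA or TTCNNGAANNTTC), which contains pairs. Capitals mark pair matches. The sequences are from RefSeq on GRCm38.p6, an older build than the GRCm39 named for the counts. The first 3 end at the base before the gene's start, and the last pair show an element near the start with 3 bases on either side.
Hspa1a, chr17:34972157-34972406, minus strand: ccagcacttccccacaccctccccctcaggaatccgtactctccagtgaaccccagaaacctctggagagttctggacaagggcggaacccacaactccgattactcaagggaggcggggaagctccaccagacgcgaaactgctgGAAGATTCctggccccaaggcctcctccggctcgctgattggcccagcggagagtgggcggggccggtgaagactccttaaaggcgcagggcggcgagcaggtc
Hspb1, chr5:135887669-135887918, plus strand: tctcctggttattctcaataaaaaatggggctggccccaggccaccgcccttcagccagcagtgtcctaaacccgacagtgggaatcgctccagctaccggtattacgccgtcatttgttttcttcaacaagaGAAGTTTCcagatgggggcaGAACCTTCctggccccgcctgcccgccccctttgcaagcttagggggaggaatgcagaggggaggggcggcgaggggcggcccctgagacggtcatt
Hspe1, chr1:55087898-55088147, plus strand: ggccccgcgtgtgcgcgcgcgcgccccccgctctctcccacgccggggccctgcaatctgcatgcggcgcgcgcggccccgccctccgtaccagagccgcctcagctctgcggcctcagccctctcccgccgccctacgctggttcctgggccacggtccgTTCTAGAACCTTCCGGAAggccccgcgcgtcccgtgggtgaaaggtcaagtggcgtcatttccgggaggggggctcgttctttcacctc
Hsph1, chr5:149636285-149636303, minus strand: agaTTCTGGAAAGTTCtcc
Chordc1, chr9:18292260-18292288, plus strand: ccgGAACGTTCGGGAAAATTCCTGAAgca

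The window of Hspa1b differs from that of Hspa1a at 4 of 300 bases and holds the same pair, 104 bases before the start. Hspb1 carries pairs that begin 117 and 97 bases before its start. Hspe1, which fell, carries overlapping runs of 3 blocks that also lie in the window of Hspd1, its head-to-head neighbour. Windows from 250 bases before to 50 bases after the start were matched for 33 of the 40 genes, with no entry used for Hspa8, Hspa9, Hsp90aa1, Hsp90ab1, St13, Cct4 and Hsf1. A pair occurred in 14 of the 33 (42.4%), against 17% of 27025 genes with a window, and a run of 3 in 5 (15.2%), against 0.662%. By call, a pair was present for 8 of 12 members called higher, 4 of 14 called lower and 2 of 7 not called. The run of 3 was present for Hsph1 and Chordc1, which rose, for Hspd1 and Hspe1, which fell, and for Dnajb6, which was not called. Dnajb1, which rose 3.46-fold, held no pair in its windows. A match describes these letters only, and binding of any factor was not measured.

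**Figure D2:**
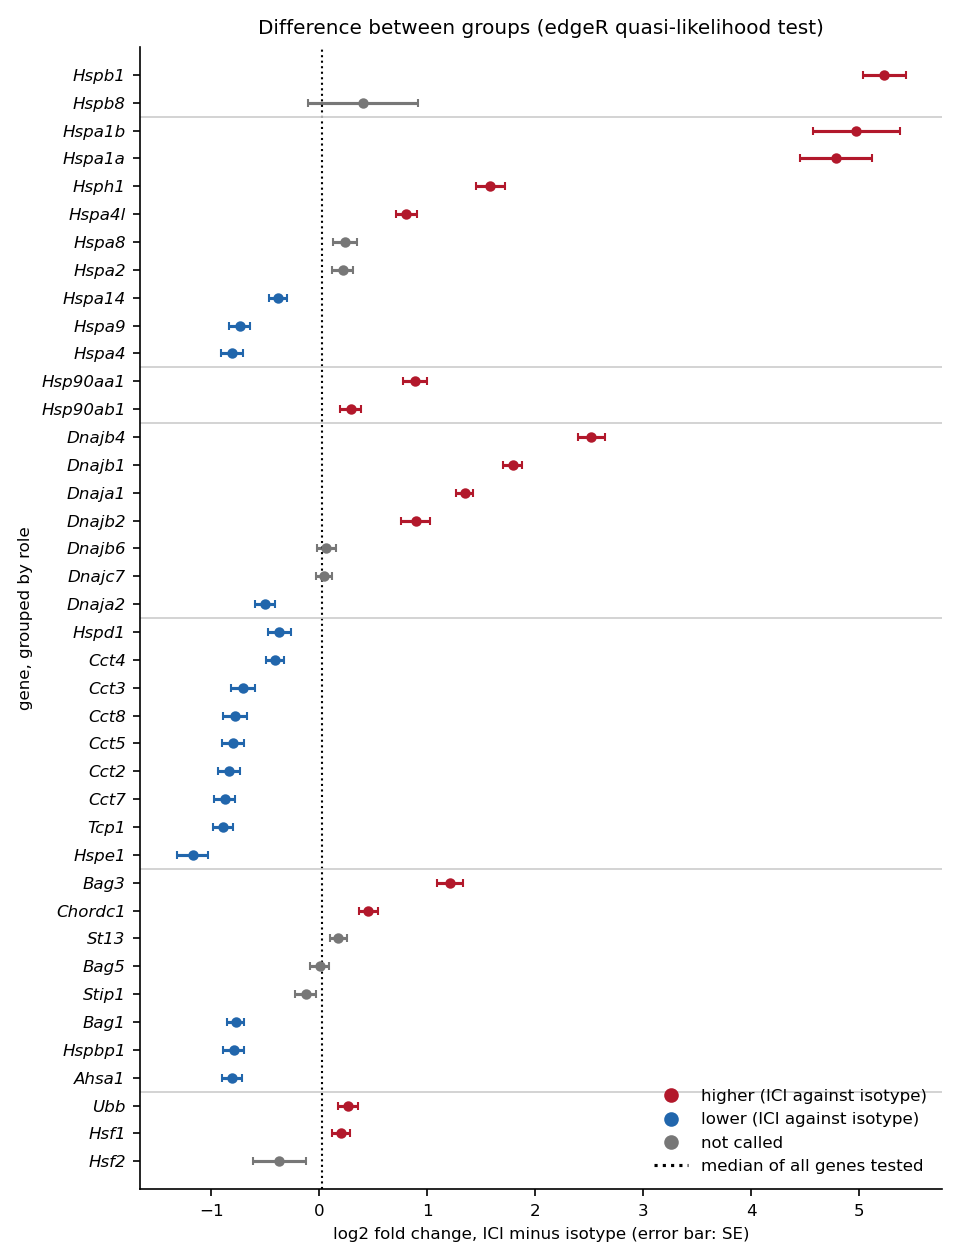
Log2 fold change (ICI minus isotype, horizontal axis) of each of the 40 genes with its SE as the error bar, grouped by role, with the dotted line at 0.03, the median of all genes tested. Hspb1, Hspa1b and Hspa1a lie near 5, the chaperonin subunits lie between -1.17 and -0.37, and 9 genes in grey were not called.

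Both HSP90 genes rose, the inducible one more. Hsp90aa1, the stress-inducible form, was at 510, 611 and 482 CPM in the ICI replicates and at 307, 295 and 265 CPM in the isotype replicates, 1.85-fold higher (log2 fold change 0.89, SE 0.11, edgeR adjusted p = 5.33e-05). Hsp90ab1, the constitutive form, was at 1278, 1334 and 1134 CPM against 1045, 1048 and 969 CPM. The groups did not overlap for either gene, but the gap for Hsp90ab1 was narrow. Its 1.22-fold rise (edgeR adjusted p = 0.0191) lost its call without ICI replicate 1 or 2 or isotype replicate 1 or 3 (adjusted p = 0.05, 0.0636, 0.0673 and 0.0857) and against a 1.5-fold change. The ratio of Hsp90aa1 to Hsp90ab1 counts was 0.399 to 0.458 in ICI and 0.273 to 0.294 in isotype libraries.

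HSP40 genes held the next largest rises. Dnajb4 (ENSMUSG00000028035) was at 55.0, 61.9 and 66.0 CPM in the ICI replicates and at 9.39, 10.3 and 12.1 CPM in the isotype replicates, 5.74-fold higher (log2 fold change 2.52, SE 0.12, edgeR adjusted p = 1.69e-07). Dnajb1 (HSP40 itself), the inducible partner of HSP70, was at 423, 403 and 361 CPM against 116, 117 and 110.5 CPM. Dnaja1, a farnesylated HSP40, was at 572, 543 and 521 CPM against 217, 209 and 218 CPM. All 3 separated the groups by a gap of more than 2-fold. Dnaja1 rose 2.54-fold (edgeR adjusted p = 5.74e-07), and Dnajb2, which is also known from neurons, 1.86-fold, from 7.95 ± 0.543 to 14.8 ± 1.59 CPM (edgeR adjusted p = 0.000198). Dnaja2, the close relative of Dnaja1, fell 1.42-fold, from 166 ± 3.21 to 117 ± 13.5 CPM (edgeR adjusted p = 0.000927). Dnajb6, which suppresses aggregation, and Dnajc7, which also binds HSP90, were not called, at 111 ± 1.41 against 106 ± 9.49 CPM and 122 ± 4.20 against 119 ± 4.56 CPM.

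**Figure D3:**
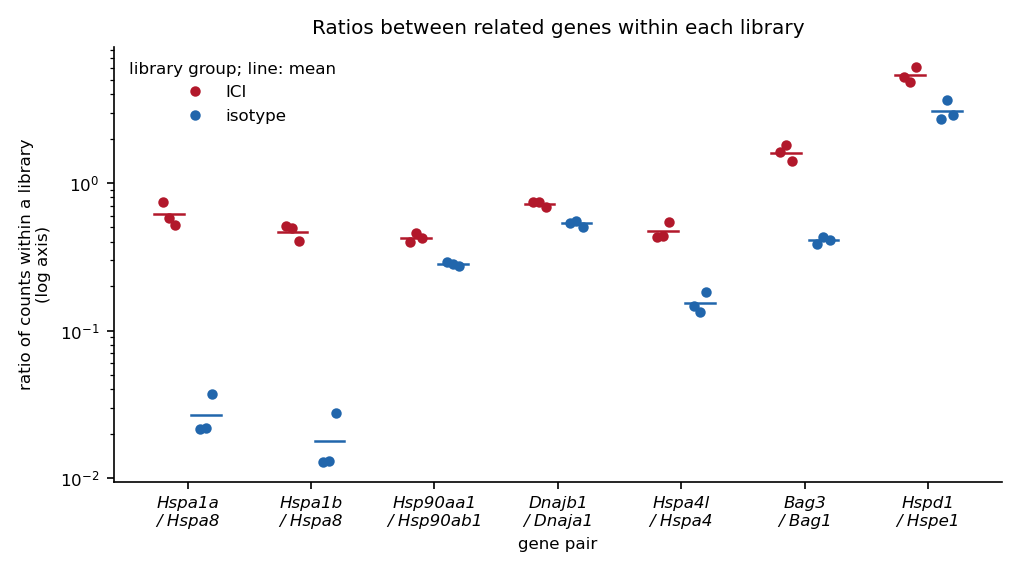
Ratio of the counts of 2 related genes within each library (log axis), with 3 ICI and 3 isotype libraries per pair as points and their mean as a line. For the 7 pairs drawn, of 10 computed, the ICI libraries lie above the isotype libraries, from 0.521 to 0.745 against 0.0216 to 0.0371 for Hspa1a over Hspa8 to 4.81 to 6.15 against 2.71 to 3.63 for Hspd1 over Hspe1.

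Every chaperonin gene of the list fell. The 7 subunits of the cytosolic ring TRiC fell by 1.33-fold (Cct4) to 1.85-fold (Tcp1), the median log2 difference being -0.80, and none of their values overlapped between the groups (over all genes, all ICI libraries lay below all isotype libraries in 36.3%). Tcp1, the alpha subunit, was at 107, 119.8 and 106 CPM in the ICI replicates and at 213, 219.9 and 184 CPM in the isotype replicates (1.85-fold lower, log2 SE 0.10, edgeR adjusted p = 2.28e-05). Cct8, the theta subunit and the most abundant of the 7 by CPM, was at 189, 218 and 178 CPM against 348, 366 and 289 CPM, and fell 1.72-fold. In all 7 genes isotype replicate 3 was the lowest isotype library, and it still lay above every ICI library. The changes were modest in size: against a 1.5-fold change Cct3 and Cct4 lost their calls (adjusted p = 0.12 and 1). Cct6a, the zeta subunit, is not among the 40 genes and is given because it completes the ring, a choice made after its value was seen; it fell 1.67-fold (edgeR adjusted p = 0.000255).

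The mitochondrial chaperonin was uneven. Hspe1 (HSP10), the lid of the ring, was at 20.8, 25.1 and 17.5 CPM in the ICI replicates and at 55.2, 44.7 and 43.0 CPM in the isotype replicates, 2.25-fold lower (log2 fold change -1.17, SE 0.15, edgeR adjusted p = 7.53e-05). Hspd1 (HSP60), the ring itself, was at 109, 121 and 108 CPM against 149.6, 162 and 125 CPM. The groups did not overlap for either gene, but for Hspd1 isotype replicate 3 was only 1.04 times ICI replicate 2. Its 1.29-fold fall (edgeR adjusted p = 0.0101) lost its call with upper-quartile factors (adjusted p = 0.125), with library totals alone (0.156) and against a 1.5-fold change. The pair is transcribed from a shared promoter, and the ratio of Hspd1 to Hspe1 counts was 4.81 to 6.15 in ICI and 2.71 to 3.63 in isotype libraries. Their exons overlap on opposite strands, as do those of Tcp1, Cct7, Cct8, Dnaja1 and Dnajc7 with other genes, and the libraries carry no strand, so reads in the overlaps cannot be assigned.

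Co-chaperones went both ways. Bag3, a heat-inducible nucleotide exchange factor that links HSP70 to autophagy, was at 116.5, 131 and 94.2 CPM in the ICI replicates and at 46.3, 50.3 and 51.02 CPM in the isotype replicates (2.31-fold, log2 SE 0.12, edgeR adjusted p = 1.29e-05). Bag1, the family member tied to the proteasome, was at 71.9, 72.5 and 66.7 CPM against 119.8, 117 and 124 CPM (1.71-fold lower, log2 SE 0.08, edgeR adjusted p = 1.53e-05). The ratio of Bag3 to Bag1 counts was thus above 1 in every ICI library (1.41 to 1.80) and below 1 in every isotype library (0.386 to 0.430). Bag5 was at 28.4 ± 1.45 against 28.3 ± 0.698 CPM and was not called. Hspbp1, an HSP70 nucleotide exchange factor, fell 1.73-fold, from 49.04 ± 4.74 to 28.4 ± 0.815 CPM (edgeR adjusted p = 5.39e-05).

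Among co-chaperones of HSP90, Ahsa1, which stimulates its ATPase, fell 1.75-fold, from 156 ± 7.10 to 89.1 ± 9.45 CPM (edgeR adjusted p = 4.43e-05). Chordc1 (morgana), a zinc-binding HSP90 partner, rose 1.37-fold, from 52.4 ± 0.662 to 71.9 ± 6.67 CPM (edgeR adjusted p = 0.00121), a change that did not pass against a 1.5-fold limit. Stip1 (HOP), which hands clients from HSP70 to HSP90, was at 133 ± 14.6 against 145 ± 10.1 CPM, with overlapping values and no call. St13 (HIP), which stabilizes HSP70 bound to ADP, was at 108 ± 5.39 against 95.3 ± 2.59 CPM and was not called (edgeR adjusted p = 0.0654), although its groups did not overlap. It was called higher with upper-quartile factors (adjusted p = 0.00211).

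The regulators differed little. Hsf1, the master factor of the heat shock response, was at 59.2, 57.7 and 63.5 CPM in the ICI replicates and at 50.9, 53.8 and 52.1 CPM in the isotype replicates. The call of its 1.15-fold rise (edgeR adjusted p = 0.0445, log2 SE 0.08) was lost with DESeq2 (adjusted p = 0.0556), with the replicate block (0.0539), and without ICI replicate 1 or 3 or isotype replicate 1, 2 or 3 (0.0709 to 0.176). That call was also lost with no filter, without replicate 3 of both groups and against a 1.5-fold change. Activation of Hsf1 is by trimer formation and modification of the protein, which RNA counts do not measure. Hsf2, a related factor, was scarce at 2.34 ± 0.503 against 3.04 ± 0.615 CPM and was not called. The ratio of Hsf2 to Hsf1 counts was 0.0305 to 0.0502 in ICI and 0.0461 to 0.0656 in isotype libraries, which overlapped. Ubb, a polyubiquitin gene induced by stress, rose 1.204-fold, from 1962 ± 142 to 2364 ± 112 CPM (edgeR adjusted p = 0.0289). The call was lost without ICI replicate 1 or isotype replicate 1 or 2 (adjusted p = 0.0823, 0.0982 and 0.125) and against a 1.5-fold change.

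Levels were compared between genes per kilobase of merged exon, from an older annotation. Merged exons take in every annotated exon of a gene and can be longer than the transcripts present. The order and ranks below depend on them. In the isotype libraries the order was Ubb (1172 ± 84.8 CPM per kilobase), Hspa8 (675 ± 32.6), Hsp90ab1 (340.3 ± 14.97), Cct8 (108 ± 13.1) and Cct5 (106 ± 9.51), the last 2 within their spread. In the ICI libraries Ubb (1411 ± 66.6 CPM per kilobase) and Hspa8 (796 ± 88.3) were followed by Hspa1a (721 ± 211) and Hspa1b (579 ± 129), then by Hsp90ab1 (416 ± 34.4). By this measure Hspa8 and Hspa1a alone did not differ beyond their spread there. By CPM, without a length, they were at 3426 ± 380 and 2139 ± 625 in the ICI libraries. Summed to 1 gene, Hspa1a and Hspa1b were at 3760 ± 969 CPM in the ICI libraries, against 3426 ± 380 CPM for Hspa8. Those values are not per kilobase. The merged exons of Hspa8 are longer (4301 bases, against 2967 for Hspa1a and 2803 for Hspa1b). The lengths of the transcripts present were not measured, so no order per transcript is given. Hspa1a and Hspa1b were at ranks 21 and 26 of 40 in the isotype libraries and at ranks 3 and 4 in the ICI libraries, and Hspb1 moved from rank 38 to rank 18. Of the summed CPM of the 40 genes, Hspa1a made up 0.754% in the isotype and 14.2% in the ICI libraries, and Hspa1b 0.501% and 10.7%.

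**Figure D4:**
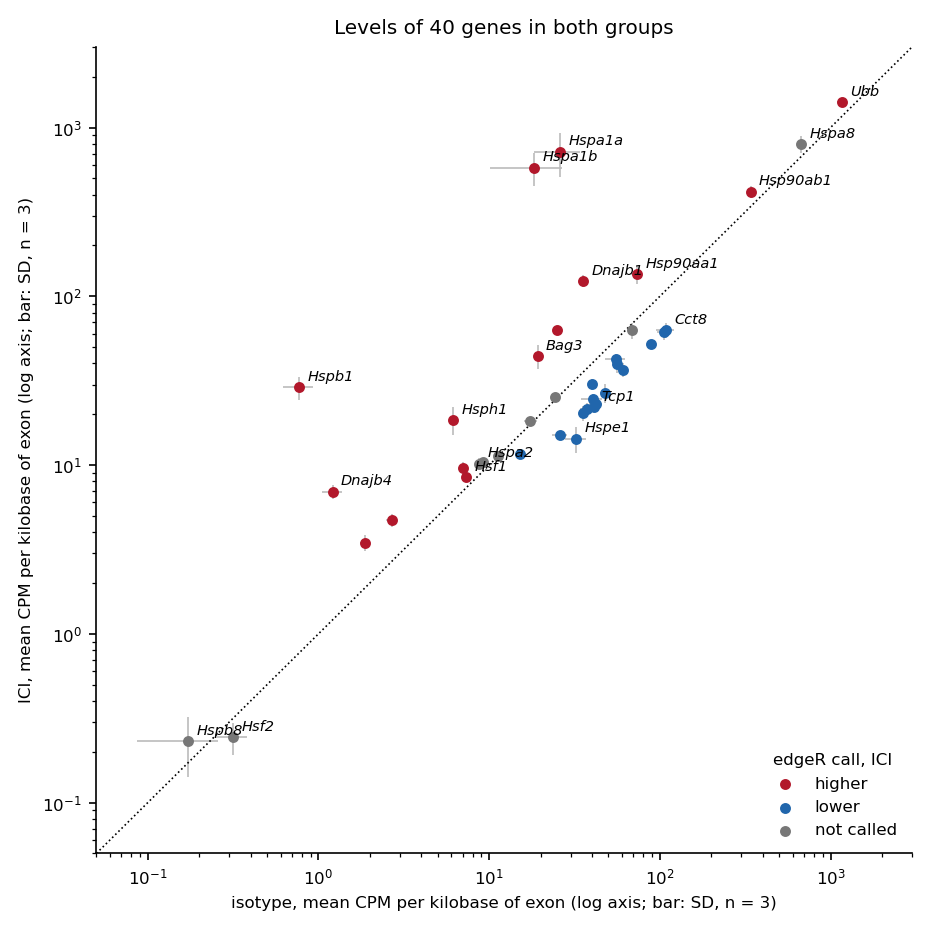
Mean level of each of the 40 genes as CPM per kilobase of exon in the isotype libraries (horizontal log axis) and in the ICI libraries (vertical log axis), with SD over 3 libraries as bars and equality as the dotted line. Hspa1a, Hspa1b and Hspb1 lie far above the line, and the chaperonin subunits lie below it as a cluster.

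Other genes of the same pathways were read from the same test, beside 33.9% called lower and 35.0% called higher over all genes. Of 30 other cytosolic chaperones and co-chaperones, 18 fell, 1 rose and 11 were not called; the median log2 difference was -0.54, against 0.03 for all genes. Nudc, an HSP90 co-chaperone, fell 2.19-fold, Dnajc2, a ribosome-associated HSP40, 2.13-fold, and Pfdn1 and Pfdn5, subunits of prefoldin, which delivers actin and tubulin to TRiC, 1.93-fold and 1.67-fold. The gene of this list that rose, Vbp1, named after its value was seen, is also a prefoldin subunit and was at 59.2 ± 8.13 against 47.2 ± 5.14 CPM, with overlapping values (1.25-fold, edgeR adjusted p = 0.0334). Of 9 mitochondrial chaperones and proteases, 7 fell and 1 rose (median -0.78), among them Clpp (2.52-fold), the nucleotide exchange factor Grpel1 (2.17-fold), the mitochondrial HSP90 Trap1 (2.07-fold) and Lonp1 (1.71-fold). Endoplasmic reticulum chaperones fell in 10 and rose in 1 of 14 cases (median -0.73). Creld2, Pdia6 and Dnajb11 fell 2.98-fold, 2.09-fold and 1.96-fold, whereas Dnajb9 rose 4.17-fold. Of 8 other genes listed under the name of small heat shock proteins 4 were tested, of which Hspb6 rose and Hspb11 fell 1.54-fold.

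Stress genes outside the chaperones were read in the same way, beside 35.0% called higher over all genes. Of 12 other stress-responsive genes, 8 rose, 1 fell and 3 were not called; the median log2 difference was 0.81. Ppp1r15a, a phosphatase subunit of the integrated stress response, rose 3.28-fold, Atf3 2.53-fold, Gadd45b 2.28-fold and Ier5, a target and partner of Hsf1, 1.97-fold. Rbm3, known for induction by cold, was the gene that fell, by 1.95-fold (edgeR adjusted p = 9.43e-06), and Zfand2a, a heat-inducible gene, was not called at 83.2 ± 3.72 against 94.1 ± 6.71 CPM. Both are named after their values were seen. Immediate-early genes, a list that shares Atf3 with the former, rose in 19 of 20 cases, with Egr3 not called and a median of 1.15. Egr1 was at 3069 ± 398 against 402 ± 59.4 CPM, Jun rose 5.83-fold and Jund 3.09-fold. Warm enzymatic dissociation of tissue is known to induce both these and heat shock genes. Its part here was not tested, and the sources used here do not state how the hearts were dissociated.

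**Figure D5:**
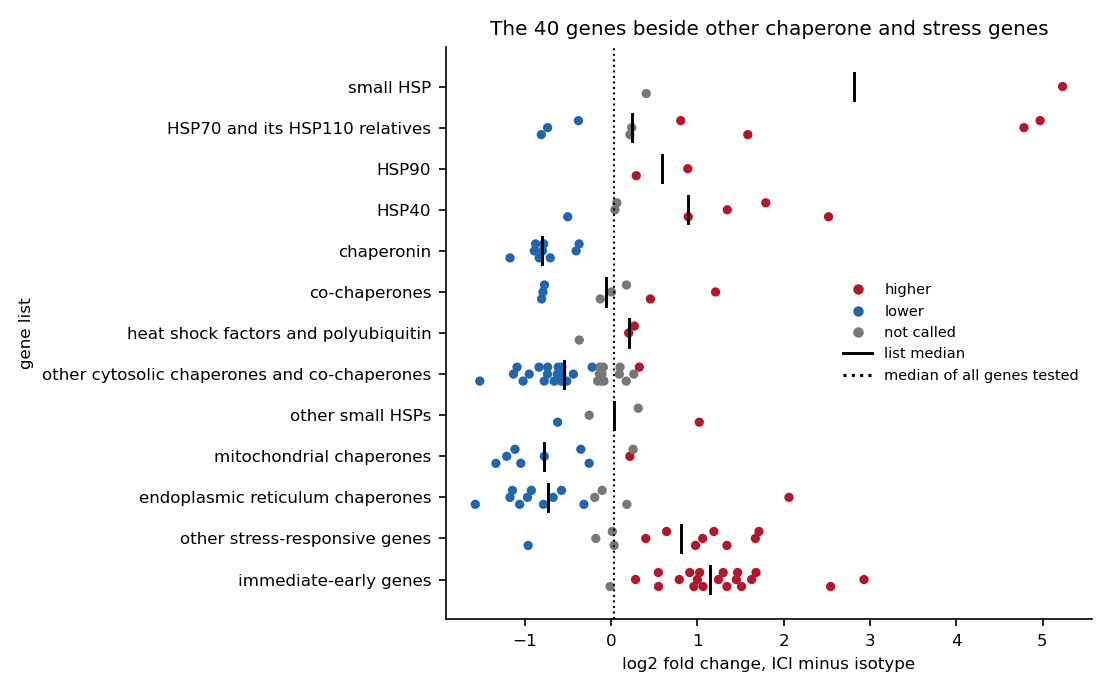
Log2 fold change (ICI minus isotype, horizontal axis) of each tested gene in the 7 role groups of the 40 genes and in 6 other lists, with the list median as a black bar and the median of all genes as a dotted line. The chaperonin, mitochondrial and endoplasmic reticulum lists have medians of -0.80, -0.78 and -0.73, and the immediate-early list one of 1.15.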

How the data were processed

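RNA of sorted CD45-positive, CD90.2-negative heart cells was made into non-directional SMART-seq V4 libraries, per the labels' protocols. The authors deposited raw counts per Ensembl gene, 1 column per library, matched to samples by library name. STAR 2.7.10a, Salmon 1.10.1 and the GRCm39 build are listed, per the submitters' processing notes, and the sources used here do not state their roles, the annotation or any filter. Symbols matched 52029 of 57010 identifiers.

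The main test was the edgeR 4.0.16 quasi-likelihood F test (R 4.3.3, limma 3.58.1) with TMM factors, robust estimation and filterByExpr (minimum count 10), which kept 14575 genes, Benjamini-Hochberg adjusted over them. SE was taken from the fold change and F. The test was run on simulated data with known changes. CPM uses TMM-scaled totals. Lengths are merged exons of GENCODE M21 (GRCm38); coordinates are given only for the sequences shown, on GRCm38.p6. Counts cover sampling error only as far as PCR copies without molecular identifiers allow, and nothing shows that replicates came from separate animals beyond the label of biological replicate.

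Members and lists were chosen with earlier results of these data known. All 40 members are named, up to 4 genes of each pathway list by smallest p, and the most abundant gene of non-leukocyte marker lists. Neutrophil, mast, natural killer and T cell marker lists were also counted: 3 of 7, 6 of 7, 5 of 6 and 2 of 4 tested genes were called higher and 1, 0, 1 and 1 lower. Of 8 leukocyte and myeloid identity genes 2 were called higher and 4 lower. Alternatives were DESeq2 1.42.0, limma-voom, RLE and upper-quartile factors, library totals, other filters, a replicate block, libraries left out, a 1.5-fold limit, Hspa1a and Hspa1b summed, and a length trend removed. Pseudogene copies added and the legacy fit (9969 genes called, against 10040) were chosen after seeing the data, as were the non-legacy form of the main test, the TMM scaling of CPM, the gene pairs set in ratio and the sequences shown.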

Additional observations from a re-analysis of the deposited data

How the results depend on the processing

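Of the 31 called members, 26 (12 higher, 14 lower) were called in the same direction in each of the 19 tested alternatives other than the 1.5-fold limit. The exceptions were Hsf1, Hsp90ab1, Ubb, Hspa14 and Hspd1. No called member changed direction in any alternative, the length correction included. The length correction did move the log2 fold change of 18 of the 40 members by their SE or more. Hspa4l, for example, went from 0.807 to 0.514 and Hspb1 from 5.23 to 5.61. Against a 1.5-fold change 11 members were called higher and 10 lower, by construction a stricter limit. The calls lost there were those of Hspa9, Hspa14, Hsp90ab1, Dnaja2, Hspd1, Cct3, Cct4, Chordc1, Hsf1 and Ubb. Leaving out each library in turn gave 12 to 15 members called higher and 16 called lower, and moved no fold of a called member by more than 1.33 times. Without replicate 3 of both groups the counts were 14 and 16. Scaling by upper quartile or by library totals moved the all-gene median (log2) from 0.03 to 0.21 or 0.23 respectively, and gave 20 members higher with 15 and 14 lower; they added Hspa2, Hspa8, Dnajb6, Dnajc7 and St13 to those called higher. The strict filter gave 18 and 16 and left out Hspb8. The replicate block gave 14 and 16. Same-numbered replicates shared little (correlations of deviations 0.03, 0.06 and 0.13 for replicates 1, 2 and 3). The highest, that of replicate 3, joins the libraries with high Xist counts. Differently numbered replicates ran from -0.136 to 0.0901, the highest being ICI replicate 2 with isotype replicate 1. The sample titles state no pairing, so the numbers are not taken as pairs. Small counts limit Hspb8 and Hsf2.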
